A study of Homo sapiens with 18 samples.

Results

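The 10 µM RepSox response of SW620 cells was compared, gene by gene, with that of HT-29 cells whose ZEB1 transgene was not induced, as the log2 change over vehicle in SW620 minus the log2 change over vehicle in HT-29. A positive difference therefore means that RepSox moved a gene further up, or less far down, in SW620. The comparison used 12 of the 18 RNA-seq libraries of the series, 3 in each of 4 groups, chosen by their labels: uninduced HT-29 iZEB1 with DMSO, uninduced HT-29 iZEB1 with 10 µM RepSox, SW620 with DMSO and SW620 with 10 µM RepSox, all for 24 h. Both lines are established human colorectal cancer lines. HT-29 iZEB1 carries a doxycycline-inducible ZEB1, and the HT-29 groups used here received no doxycycline. The labels name no transgene in SW620. Each line is 1 line, the labels do not say whether iZEB1 is a clone or a pool, and they do not state whether replicates came from separate cultures, so p-values here reflect how far these libraries varied, possibly for technical reasons only. Anything else that differed between the 2 lines apart from RepSox cannot be told apart from the line itself.

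RepSox is an ATP-competitive inhibitor of ALK5, the type I TGF-beta receptor encoded by TGFBR1. TGF-beta binds the type II receptor TGFBR2, which activates ALK5. ALK5 phosphorylates SMAD2 and SMAD3, and these join SMAD4 in the nucleus to switch target genes on or off, among them the inhibitory SMAD7. In colorectal epithelium the pathway restrains growth, and in carcinoma cells it can drive epithelial-mesenchymal transition, the programme that ZEB1, a repressor of E-cadherin, takes part in.

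The 12 libraries held 36.5 M to 38.5 M counts each, and 18614 of the 60642 genes in the table passed the filter on low counts. Levels are given below as CPM, a gene's counts scaled to a common effective library size, which compare a gene between libraries and not one gene with another. The defining epithelial gene EPCAM was present in both lines (604 to 658 CPM as group means in HT-29, 321 to 323 CPM in SW620). The colon transcription factor CDX1 had no count in any SW620 library and group means of 0.0948 and 0.241 CPM in HT-29. CDX2 averaged 0.341 and 0.593 CPM in the HT-29 groups and 7.07 to 9.18 CPM in SW620. The summed fibroblast markers lay between 1.58 and 3.27 CPM in HT-29 and between 62.4 and 69.2 CPM in SW620, where FBLN1, at 52.9 and 55.5 CPM, made up most of the sum. The summed leukocyte markers, at 1119 to 1403 CPM in HT-29 and 26.7 to 40.0 CPM in SW620, were mostly LYZ in HT-29 and mostly CD4 in SW620 (34.1 and 22.8 CPM as group means). The endothelial markers summed to 51.3 to 67.9 CPM in HT-29, mostly ESAM, and to 3.98 to 6.53 CPM in SW620. The part of these markers in the results was not tested. In bulk RNA, fewer cells expressing a gene and less RNA per cell cannot be told apart.

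The difference in response was called for 3016 genes, 16.2% of those tested (edgeR's quasi-likelihood test, Benjamini-Hochberg adjusted p under 0.05). The response was higher in SW620 for 1585 genes (8.52%) and lower for 1431 genes (7.69%). RepSox itself changed 2894 genes in SW620 (15.5%; 8.32% rose and 7.23% fell) and 5737 genes in HT-29 (30.8%; 15.1% rose and 15.7% fell). These shares over all genes are the background for the list counts below. The median difference over all tested genes was -0.0047 on the log2 scale. Scaling by library totals alone moved the SW620 calls from 53.5% to 39.7% higher and the called differences from 52.6% to 43.0% higher.

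Of the 3016 genes with a called difference, 1746 (57.9%) had a RepSox response called in HT-29 alone, 511 (16.9%) in SW620 alone, 242 (8.02%) in the same direction in both lines at different sizes, and 143 (4.74%) in neither line. The remaining 374 genes (12.4%, or 2.01% of genes tested) were called in opposite directions. Of these, 279 rose in SW620 and fell in HT-29 (1.5% of genes tested), and 95 fell in SW620 and rose in HT-29 (0.51%). Leaving out SW620 RepSox replicate 1 reduced the latter to 63, and a fit with all 18 libraries reduced it to 60. Scaling by library totals raised it to 160. Of the 1493 genes called in both lines, 1119 moved the same way, 478 up and 641 down.

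Restricting the view to the 9587 genes with a mean of at least 5 CPM in each line, 2416 differences were called (25.2%). Across those genes the 2 lines' responses correlated weakly (Pearson 0.28, Spearman 0.32), a description over genes, which are not independent replicates. The responses spread less in SW620 (SD 0.19, log2) than in HT-29 (SD 0.27). At 2-fold or more, 75 of these genes had a called difference towards SW620 and 9 towards HT-29. Among the opposite movers, 224 rose in SW620, by a median log2 change of 0.34, and fell in HT-29, with a median of -0.34. The 74 that did the reverse had medians of -0.24 and 0.25. Groups stood apart in both lines for 207 of the 224 and 69 of the 74. That adds no support, as the genes were picked for calls in both lines.

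**Figure D1:**
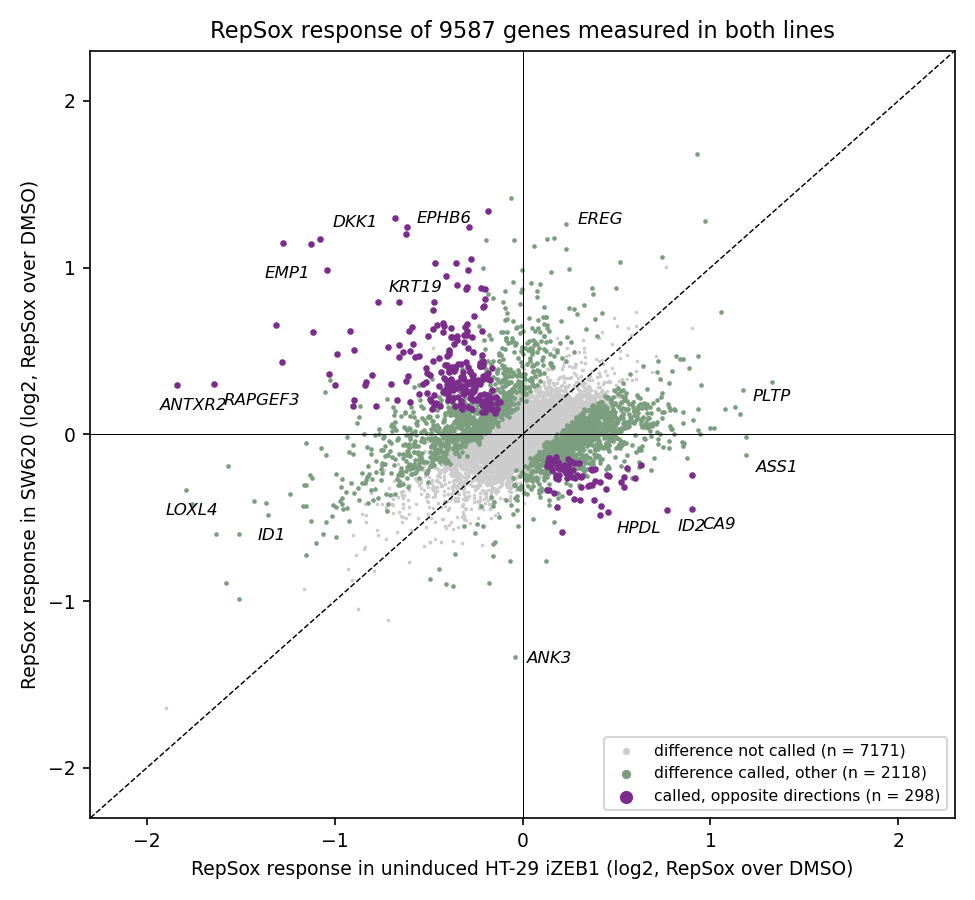
RepSox response (log2, RepSox over DMSO) in SW620 (vertical axis) against that in uninduced HT-29 iZEB1 (horizontal axis) for the 9587 genes with at least 5 CPM in each line, 1 point per gene. Genes called in opposite directions (298, purple) lie mostly in the upper left, where DKK1, EMP1 and KRT19 rose in SW620 and fell in HT-29; on the dashed line both responses would be equal.

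Of 12 tested receptors of the TGF-beta superfamily, 1 had a higher and 1 a lower response in SW620, a share near the 16.2% called over all genes. Leaving out single libraries gave 0 to 3 lower calls, and ACVR2B, the activin type II receptor with the lower response, lost its call without any 1 of 5 libraries. TGFBR1, the kinase that RepSox inhibits, had 22.2, 19 and 24.3 CPM with vehicle and 27.4, 24.9 and 24.2 CPM with RepSox in HT-29, and 19.4, 20.8 and 22.3 against 19.2, 21.6 and 18.2 CPM in SW620. Its groups overlapped in both lines and the difference was not called (-0.31 ± 0.12 SE, adjusted p = 0.096, 95% interval -0.56 to -0.052). It was called without HT-29 DMSO replicate 3 (-0.40, adjusted p = 0.021), without SW620 RepSox replicate 2 (-0.39, adjusted p = 0.0425) and with a replicate block shared by the lines within each treatment (-0.31, adjusted p = 0.0474), an alternative chosen after seeing the data. TGFBR2, the type II receptor, had 99.3, 93.3 and 102 CPM with vehicle and 108, 116.2 and 110.3 CPM with RepSox in SW620, where it rose by 0.18 ± 0.049 (log2). In HT-29 it had 106, 112 and 111 against 102, 103 and 103 CPM, a change of -0.10 ± 0.049 that was not called, and the difference was 0.28 ± 0.069 (adjusted p = 0.0050). ACVR1B, the activin type I receptor ALK4, differed by 0.13 ± 0.081 between the lines (adjusted p = 0.34).

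Of the receptor-regulated SMADs, SMAD3 had a called difference. It had 166, 163 and 167 CPM with vehicle and 102, 97.9 and 103 CPM with RepSox in HT-29. In SW620 it had 79.8, 84.1 and 83.7 CPM with vehicle and 77.1, 80.1 and 83.1 CPM with RepSox. The HT-29 groups stood apart and the SW620 groups overlapped. The log2 change was -0.71 ± 0.047 in HT-29 and -0.043 ± 0.047 in SW620, a difference of 0.67 ± 0.066 (adjusted p = 4.5e-08). The SMAD2 difference was not called (0.062 ± 0.074, adjusted p = 0.66, 95% interval -0.090 to 0.21). The shared partner SMAD4 was scarce in SW620, at 0.331, 0.616 and 0.808 CPM with vehicle and 0.933, 0.644 and 0.737 CPM with RepSox, while HT-29 held 12.5, 12.6 and 14.4 CPM and 12.5, 11.4 and 11.6 CPM. It was not called in either line and its difference was not called (adjusted p = 0.21). Over the 16 tested SMADs and co-regulators, 3 responses were higher in SW620 and 1 lower, against 8.52% and 7.69% of all genes. Leaving out single libraries gave 2 to 4 higher, and the list's median difference was 0.13. In HT-29 7 of the 16 fell and 1 rose, against 1 and 1 in SW620.

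The SMAD-induced feedback gene SMAD7 fell in both lines. It went from 20.9, 19.2 and 18.9 CPM to 14, 14.3 and 13.4 CPM in HT-29 and from 6.40, 5.28 and 5.83 CPM to 4.54, 4.20 and 4.82 CPM in SW620, without overlap in either line. The changes were -0.50 ± 0.084 and -0.37 ± 0.10, and the difference of 0.13 (95% interval -0.15 to 0.41) was not called (adjusted p = 0.59). Its BMP-side counterpart SMAD6 had a called difference. In SW620 SMAD6 rose from 62.7, 62.1 and 60.4 CPM to 101, 99.9 and 101 CPM, and in HT-29 it had 81, 83.8 and 75.7 CPM with vehicle and 90.6, 87.6 and 84.4 CPM with RepSox. The SW620 change was 0.70 ± 0.050, the HT-29 change of 0.13 ± 0.050 was not called, and the difference was 0.58 ± 0.071 (adjusted p = 1.3e-06).

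ID1 and ID2, both BMP- and TGF-beta-regulated inhibitors of basic helix-loop-helix factors, responded to RepSox unlike each other. ID1 fell in both lines and further in HT-29, from 43, 50.8 and 46.3 CPM to 18.2, 17.7 and 18.9 CPM there and from 79.9, 79.5 and 69.6 CPM to 51.9, 57.7 and 54.4 CPM in SW620. The groups did not overlap, and the difference was 0.87 ± 0.10 (adjusted p = 3.2e-07). ID2 rose in HT-29 from 32.6, 36 and 34.4 CPM to 57, 61.8 and 56.7 CPM and fell in SW620 from 22.1, 23.1 and 22.9 CPM to 16.4, 17.3 and 15.9 CPM. Each change was free of overlap (0.77 ± 0.062 in HT-29, -0.45 ± 0.067 in SW620) and the difference was -1.22 ± 0.091 (adjusted p = 3.1e-10). ID2 was picked for calls in both lines, so the lack of overlap adds no support. ID2 lies at chr2:8678845-8684453, plus strand in GENCODE 29 (GRCh38), where an antisense gene, ID2-AS1, overlaps its exons. Of the 11 tested BMP targets, 3 had higher and 2 lower responses in SW620, against 8.52% and 7.69% of all genes.

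Of 37 tested TGF-beta-induced genes, 15 had a higher response in SW620, against 8.52% of all genes, and 1, VEGFA (adjusted p = 0.046), a lower one. Of the 15, 7 were called up in SW620 and down in HT-29, and 21 of the 37 had no called difference. The list had a median difference of 0.38 against -0.0047 over all genes. RepSox lowered 19 and raised 3 of them in HT-29 and lowered 6 and raised 16 in SW620. TAGLN, the actin-binding protein transgelin, had the list's highest difference. It rose in SW620 from 15.6, 12.5 and 12.1 CPM to 55.5, 55.5 and 57.9 CPM and fell in HT-29 from 3.59, 3.97 and 4.52 CPM to 2.85, 3.06 and 2.19 CPM. No groups overlapped within a line, and the changes were 2.07 ± 0.090 and -0.58 ± 0.14 (difference adjusted p = 1.6e-11). NEDD9, a focal adhesion scaffold, rose by 1.72 ± 0.18 in SW620, from 0.898-1.73 CPM to 3.48-5.34 CPM, and changed by -0.073 ± 0.10 in HT-29, where its groups overlapped. PDGFB, the B chain of platelet-derived growth factor, rose from 14.9-15.5 CPM to 25.4-27.5 CPM in SW620 and fell from 11.5-11.7 CPM to 6.93-8.20 CPM in HT-29.

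Genes of the basement membrane were among those called in opposite directions. LAMA3 and LAMB3 encode chains of laminin-332, the laminin that anchors epithelium to its basement membrane. LAMA3, the alpha-3 chain (chr18:23689443-23956222, plus strand, GENCODE 29), went from 28.9, 28.5 and 31.3 CPM to 13.5, 13.5 and 14 CPM in HT-29 and from 29.9, 30.6 and 32.4 CPM to 47.4, 46.7 and 47.9 CPM in SW620. LAMB3, the beta-3 chain, went from 124, 122 and 111 CPM to 68.7, 67.5 and 63.9 CPM in HT-29 and from 33.2, 30.6 and 34 CPM to 38.9, 40.1 and 42.7 CPM in SW620. Both genes fell in HT-29 and rose in SW620 with no overlap of groups, as did most genes called in these directions. The differences were 1.73 ± 0.090 and 1.15 ± 0.083 (adjusted p = 4.3e-13 and 1.8e-10).

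Integrins, the receptors that bind laminins and other matrix, behaved similarly. Of 18 tested integrin and laminin genes, 14 had a higher response in SW620 and none a lower one, with a median difference of 0.70 and 13 to 15 called under every alternative run. In SW620 12 rose and 2 fell, while in HT-29 1 rose and 12 fell. Of the 18, 8 were called in opposite directions, among them ITGA1, ITGA2, ITGB1, ITGB4 and LAMC1. ITGA1 shares exons on the same strand with PELO and AC022133.1, so its counts cannot be assigned to it with certainty. ITGB4, the beta chain of the laminin-332 receptor, rose in SW620 from 489-559 CPM to 816-847 CPM and fell in HT-29 from 274-311 CPM to 191-201 CPM. Its partner ITGA6 rose in SW620 by 0.50 ± 0.047 and changed by 0.075 ± 0.047 in HT-29, a difference of 0.42 ± 0.066 (adjusted p = 5.3e-05). ITGA2, the collagen receptor chain, rose by 0.89 ± 0.089 in SW620 and fell in HT-29 (-0.35 ± 0.083). ITGB6, whose protein activates latent TGF-beta, rose by 0.89 ± 0.12 in SW620 and changed by -0.042 ± 0.077 in HT-29. ITGA3 was an exception to the rise: it fell in both lines (-0.85 ± 0.045 in HT-29 and -0.23 ± 0.052 in SW620).

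**Figure D2:**
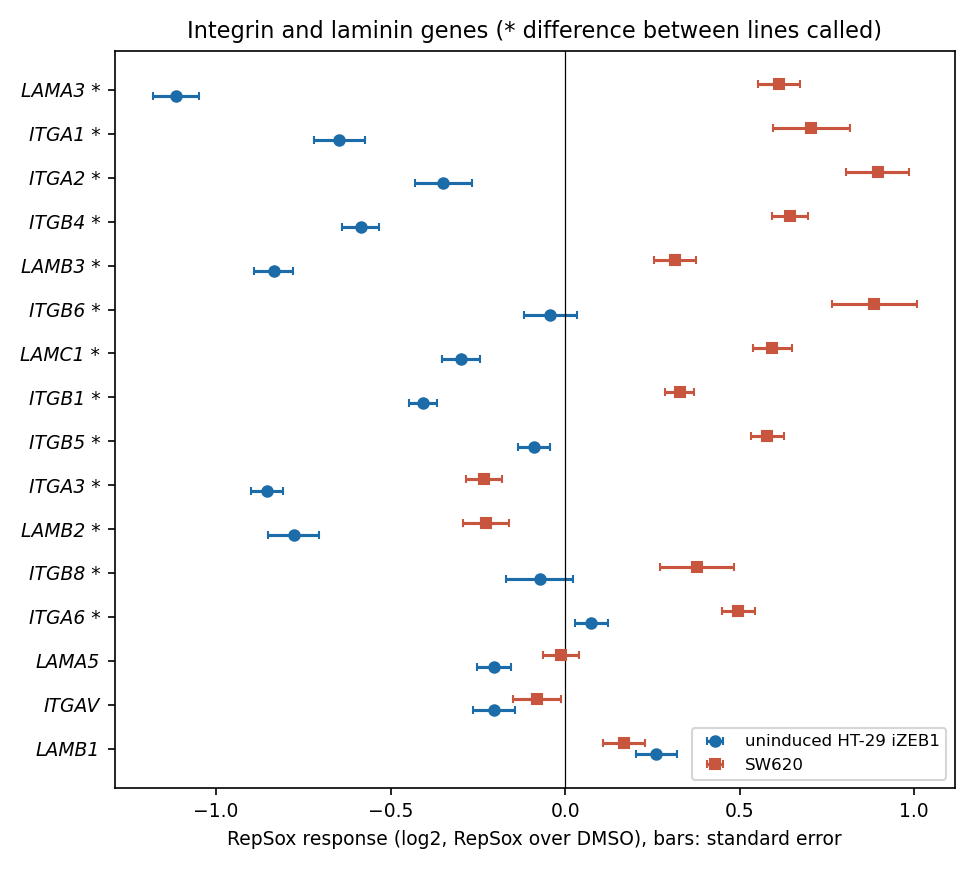
RepSox response (log2, RepSox over DMSO, point ± standard error from the fit over 12 libraries) of 16 listed integrin and laminin genes with at least 1 CPM in each line, in uninduced HT-29 iZEB1 (blue circles) and SW620 (red squares); an asterisk marks a called difference. LAMA3, ITGA1, ITGA2, ITGB4, LAMB3, LAMC1 and ITGB1 lie on opposite sides of 0 in the 2 lines.

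EMP1, KRT19 and DKK1 were among the protein-coding genes with the largest opposite responses and share no exons with another gene of their strand. EMP1, an epithelial membrane protein of the peripheral myelin protein family, had 39.3, 41.8 and 41.1 CPM with vehicle and 21.2, 20.3 and 17.9 CPM with RepSox in HT-29, and 70.0, 72.3 and 79.6 against 142, 148 and 149.8 CPM in SW620. KRT19, an epithelial keratin, had 546, 553 and 493 CPM and 333, 306 and 296 CPM in HT-29 and 727, 749 and 652 CPM and 1199, 1211 and 1272 CPM in SW620. DKK1, a secreted WNT antagonist, had 23.4, 25.5 and 21.1 CPM and 11.5, 11.1 and 10.5 CPM in HT-29 and 9.18, 8.16 and 8.16 CPM and 18, 20.7 and 18.7 CPM in SW620. All 3 moved down in HT-29 and up in SW620 with no overlap of groups, which adds no support, as they were picked for calls in both lines. The differences were 2.03 ± 0.087 for EMP1, 2.25 ± 0.12 for DKK1 and 1.56 ± 0.078 for KRT19 (adjusted p = 2.8e-14, 1.3e-12 and 2.3e-13). The non-coding IGFL2-AS1 (2.26 ± 0.16) and GCOM1 (1.98 ± 0.12) also moved oppositely. GCOM1 shares exons on the same strand with MYZAP and POLR2M, so its counts cannot be assigned to it with certainty.

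In the reverse direction, CA9, a carbonic anhydrase that is a standard hypoxia marker, had the lowest called difference among genes measured in both lines. It rose in HT-29 from 26.4, 19.8 and 26 CPM to 46.5, 41.5 and 46.8 CPM. In SW620 it had 45.7, 40.2 and 30.5 CPM with vehicle and 31.4, 28.4 and 25.6 CPM with RepSox. The SW620 groups overlapped by 1 library, although its change of -0.45 ± 0.11 was called (adjusted p = 0.0056), and the difference was -1.3446 ± 0.16 (adjusted p = 6.5e-07). HPDL, a mitochondrial dioxygenase-like enzyme of coenzyme Q synthesis, rose in HT-29 from 27.2, 29.5 and 22.3 CPM to 36.1, 38.6 and 33.6 CPM and fell in SW620 from 45.6, 49.9 and 46.1 CPM to 34.5, 34 and 33.8 CPM. HT-29 was lower with vehicle, and the lines' values overlapped with RepSox. GPC4, a cell surface heparan sulfate proteoglycan, HNF4G, an intestinal nuclear receptor, and LPIN1, a phosphatidate phosphatase, rose in HT-29 and fell in SW620 with differences of -0.85 ± 0.10, -0.89 ± 0.12 and -0.78 ± 0.15.

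**Figure D3:**
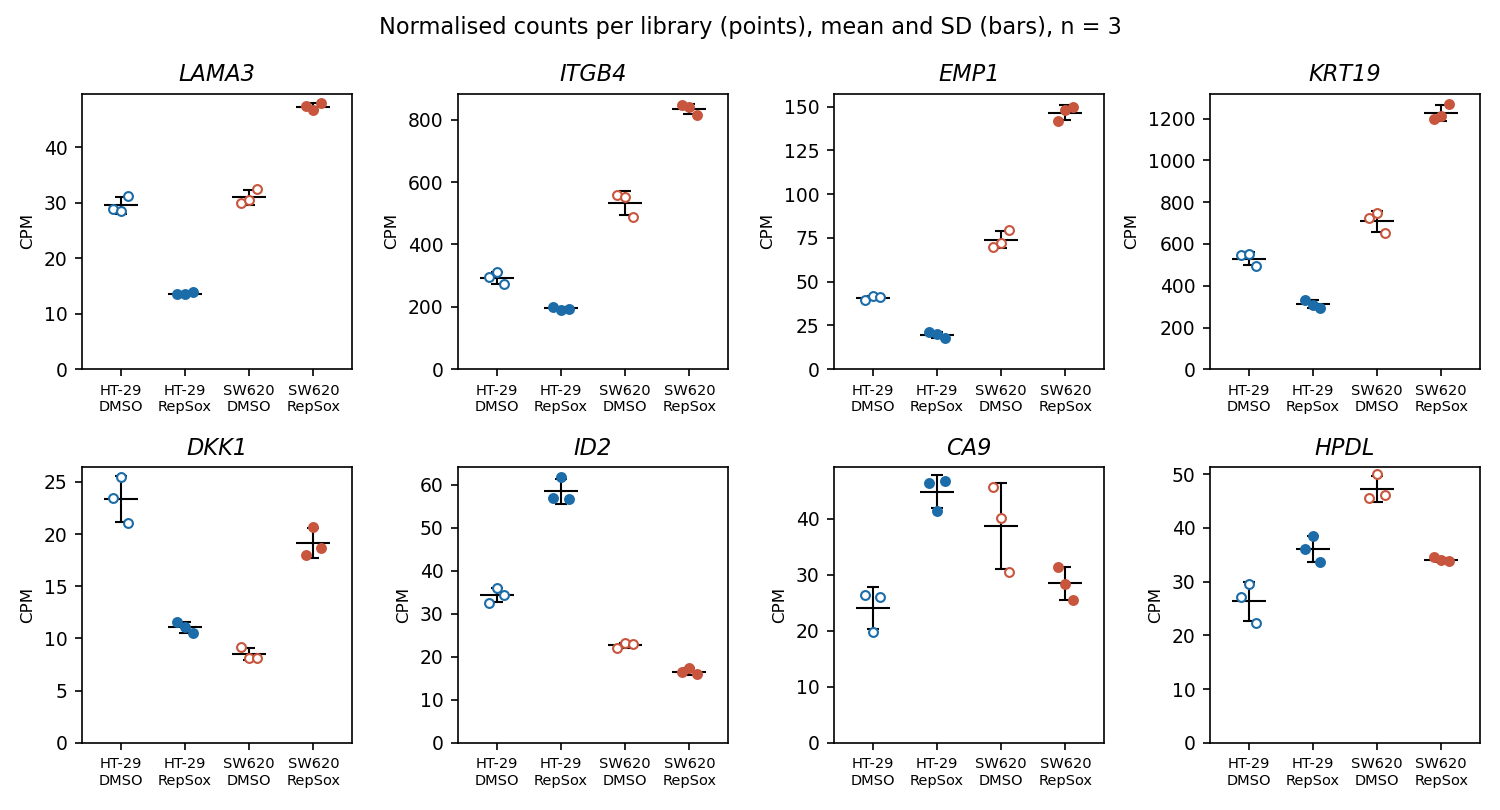
CPM in each of the 12 libraries for 8 genes (points, replicates 1 to 3 from left to right; open, DMSO; filled, RepSox; blue, uninduced HT-29 iZEB1; red, SW620), with the mean and SD of 3 libraries as black bars; each vertical axis starts at 0. LAMA3, ITGB4, EMP1, KRT19 and DKK1 fell with RepSox in HT-29 and rose in SW620, and ID2, CA9 and HPDL did the reverse; only the SW620 groups of CA9 overlap.

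The 250 bases upstream of the RefSeq start of EMP1, CA9 and ID2 (build GRCh38.p14, plus strand, 5′ to 3′) are shown because these genes, 1 raised and 2 lowered in SW620, changed in opposite senses in the lines. Of the 12 genes with the largest opposite responses, 7 were matched in the promoter table. Capitals mark matches, on either strand, to the SMAD element CAGACA, the AP-1 element TGACTCA or GCGTG, 1 form of the hypoxia response core. The other form, ACGTG, was not searched and is not marked, so a lack of capitals does not mean that no hypoxia element is present. The palindromic SMAD site GTCTAGAC and the GC-rich SMAD element GGCGCC were searched too.
EMP1, chr12:13196476-13196725: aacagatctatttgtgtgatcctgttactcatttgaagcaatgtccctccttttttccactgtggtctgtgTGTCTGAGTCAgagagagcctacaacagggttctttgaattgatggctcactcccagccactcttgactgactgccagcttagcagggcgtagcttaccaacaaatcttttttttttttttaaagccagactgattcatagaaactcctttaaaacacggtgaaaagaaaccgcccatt
CA9, chr9:35673678-35673927: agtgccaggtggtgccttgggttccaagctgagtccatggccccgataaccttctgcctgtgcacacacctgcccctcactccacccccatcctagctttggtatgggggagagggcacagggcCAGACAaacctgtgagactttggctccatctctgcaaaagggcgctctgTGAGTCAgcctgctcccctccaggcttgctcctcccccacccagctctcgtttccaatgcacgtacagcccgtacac
ID2, chr2:8681806-8682055: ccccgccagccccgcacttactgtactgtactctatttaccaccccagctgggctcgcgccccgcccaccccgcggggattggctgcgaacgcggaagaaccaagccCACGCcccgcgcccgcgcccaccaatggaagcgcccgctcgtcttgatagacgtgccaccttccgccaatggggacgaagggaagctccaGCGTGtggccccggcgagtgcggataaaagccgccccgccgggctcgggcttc
EMP1 and CA9 each held CAGACA, which 13.6% of 27305 RefSeq promoters of this length held, and TGACTCA, which 4.2% held. The 2 matches overlap in EMP1 and are separate in CA9. ID2 held GCGTG, present in 31.9%, and none of the other motifs searched. Among the 7 genes, 2 held CAGACA, 2 TGACTCA, 2 GGCGCC, 3 GCGTG and none GTCTAGAC (0.2% of promoters). For CAGACA and TGACTCA the holders were EMP1, raised in SW620, and CA9, lowered there. The holders of GGCGCC (HPDL and GPC4) and of GCGTG (HPDL, ID2 and GPC4) were all lowered in SW620. DKK1, raised there, and LPIN1, lowered there, held none of the motifs searched. A match is a description of letters only.

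RepSox raised most of the listed actin cytoskeleton genes in SW620, and most were not called in HT-29. Of 27 tested actomyosin genes, 15 had a higher response in SW620 and 1, MYH10, a lower one, with a median difference of 0.45. In SW620 17 rose and 1 fell, and in HT-29 2 rose and 7 fell. TPM4, a tropomyosin that coats actin filaments, rose in SW620 from 605, 599.8 and 598 CPM to 1190, 1134 and 1156 CPM and fell in HT-29 from 364, 357 and 351 CPM to 277, 279 and 253 CPM. TPM1 rose by 1.05 ± 0.061 in SW620 and fell in HT-29 (-0.28 ± 0.056). VCL, the focal adhesion protein vinculin, had 409.6, 432 and 433 CPM and 660.5, 680.3 and 646 CPM in SW620 and 109.8, 118 and 120.3 CPM and 113, 115 and 111 CPM in HT-29. Its SW620 groups stood apart, its HT-29 groups overlapped, and the difference was 0.68 ± 0.064 (adjusted p = 2.1e-08).

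Among 28 tested mesenchymal genes, 11 had a higher response in SW620 and none a lower one, with a median difference of 0.32; the list shares TAGLN and TPM1 with the actomyosin list. RepSox raised 11 and lowered 3 in SW620 and raised 3 and lowered 11 in HT-29. TNC, the matrix protein tenascin C, rose in SW620 from 209, 225 and 228 CPM to 632, 656 and 652 CPM and in HT-29 from 1.14, 1.93 and 2.02 CPM to 2.87, 2.23 and 2.40 CPM. COL6A1, a collagen VI chain, rose in SW620 by 0.96 ± 0.053 and stayed within overlapping values in HT-29 (0.883-1.36 and 0.972-1.21 CPM). The receptor tyrosine kinase AXL rose by 0.36 ± 0.058 in SW620 and fell in HT-29 (-0.49 ± 0.090). VIM, the intermediate filament vimentin, was near the limit of counting in HT-29 (means of 0.322 CPM ± 0.143 and 0.261 CPM ± 0.039, SD, n = 3). Its difference was not called (adjusted p = 0.79).

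ZEB1 itself, without doxycycline, had 7.95, 7.41 and 10.5 CPM with vehicle and 5.04, 5.35 and 5.70 CPM with RepSox in HT-29. In SW620 it had 19.7, 20.4 and 24.5 CPM with vehicle and 24.7, 23.4 and 23.1 CPM with RepSox. ZEB1 thus fell in HT-29 (-0.68 ± 0.12), its groups overlapped in SW620 (0.14 ± 0.10, not called), and the difference was 0.82 ± 0.15 (adjusted p = 4.1e-04). Whether these counts include transcripts of the transgene is not known from the sources used. CDH1, E-cadherin, moved in opposite directions in the 2 lines. It had 468, 458 and 492 CPM with vehicle and 384, 392 and 374 CPM with RepSox in HT-29, and 11.2, 7.85 and 10.9 CPM and 17.9, 18.1 and 18.6 CPM in SW620. E-cadherin fell in HT-29 and rose in SW620 without overlap (-0.30 ± 0.060 and 0.87 ± 0.083, difference adjusted p = 5.5e-09), and its SW620 level with RepSox remained far under that of HT-29.

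Epithelial genes as a list had 22 higher and 2 lower responses in SW620 among 50 tested, with a median difference of 0.25. RepSox lowered 26 and raised 5 in HT-29, and lowered 6 and raised 13 in SW620. PPL, the desmosomal linker periplakin, fell in HT-29 from 104, 109 and 98.2 CPM to 49.5, 51.3 and 51.8 CPM and rose in SW620 from 96.1, 95.3 and 95.4 CPM to 121, 129 and 119 CPM. KRT8, a simple-epithelium keratin, rose by 0.59 ± 0.047 in SW620, and its change of 0.11 ± 0.047 in HT-29 was not called. The 2 members with a lower response in SW620 were TJP3 (-0.90, adjusted p = 0.037) and CLDN3 (-0.80, adjusted p = 6.1e-06), both tight junction components. TMEM30B and OVOL1, which carried the list's highest fitted values, had no counts in the SW620 vehicle libraries, so no fold is given. VIL1, the microvillus protein villin, rose in SW620 from 198-201 CPM to 237-258 CPM and fell in HT-29 from 89.8-96.1 CPM to 55.3-60.4 CPM. Both epithelial and mesenchymal lists therefore had more members called higher than lower in SW620.

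**Figure D4:**
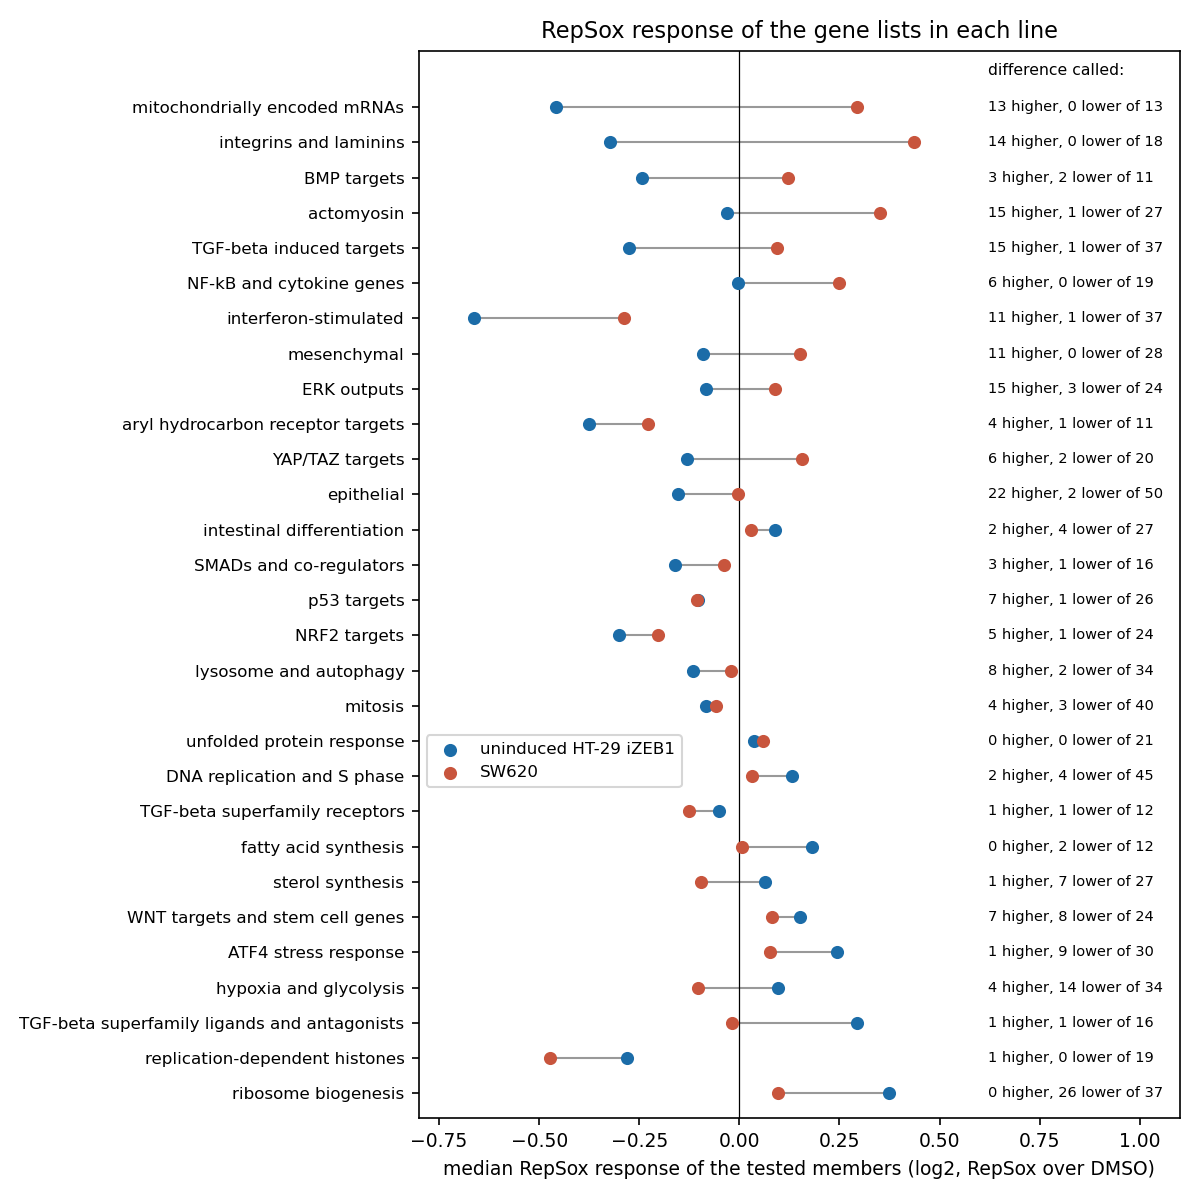
Median RepSox response (log2, RepSox over DMSO) of the tested members of 29 gene lists in uninduced HT-29 iZEB1 (blue) and SW620 (red), ordered by the median difference between lines; the text at the right gives the members with a called difference. Integrins and laminins, TGF-beta-induced targets and mesenchymal genes lie to the right of 0 in SW620 and to the left in HT-29, and ribosome biogenesis genes lie further right in HT-29.

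Outputs of ERK signalling were mostly higher in SW620, with 15 of 24 tested differences higher and 3 lower (median 0.32). In SW620 9 rose and 3 fell, and in HT-29 2 rose and 9 fell. The phosphatase genes DUSP4, DUSP5 and DUSP6, negative regulators of mitogen-activated kinases, rose in SW620 by 0.76, 0.77 and 0.46. Their HT-29 changes were 0.11, 0.19 and 0.037. MAFF, a small MAF transcription factor, rose in SW620 (0.31 ± 0.084) and fell in HT-29 (-0.40 ± 0.088). FOS, the AP-1 subunit, fell in SW620 (-0.52 ± 0.12) and its HT-29 change of 0.17 ± 0.087 was not called.

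MYC, the growth-promoting transcription factor, was among the 3 ERK outputs with a lower response in SW620. It rose in HT-29 from 209, 214 and 206 CPM to 406, 421 and 376 CPM. In SW620 it had 399, 406 and 391 CPM with vehicle and 412, 398 and 409.6 CPM with RepSox, values that overlapped. HT-29 values with RepSox overlapped those of SW620, and the difference was -0.91 ± 0.064 (adjusted p = 1.1e-10).

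Ribosome biogenesis genes, many of which MYC is known to induce, rose in HT-29. Of 37 tested, 36 rose there and none fell, against 9 and 0 in SW620, and 26 had a lower response in SW620 while none had a higher one. The median response was 0.37 in HT-29 and 0.10 in SW620, and the median difference was -0.27. The mean log2 deviation of the list from the line's mean was -0.18, -0.19 and -0.21 in the HT-29 vehicle libraries and 0.17, 0.22 and 0.18 with RepSox. In SW620 it was -0.057, -0.045 and -0.039 with vehicle and 0.037, 0.023 and 0.082 with RepSox. The groups did not overlap in either line, and the distance was smaller in SW620. NAT10, an RNA acetyltransferase, rose in HT-29 from 196, 200.3 and 201 CPM to 298, 314 and 293 CPM and had 320.2, 334 and 319.6 CPM and 342, 346 and 339.6 CPM in SW620. FBL, the rRNA methyltransferase fibrillarin, rose by 0.48 ± 0.047 in HT-29 and changed by -0.023 ± 0.047 in SW620 (difference adjusted p = 4.6e-06).

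**Figure D5:**
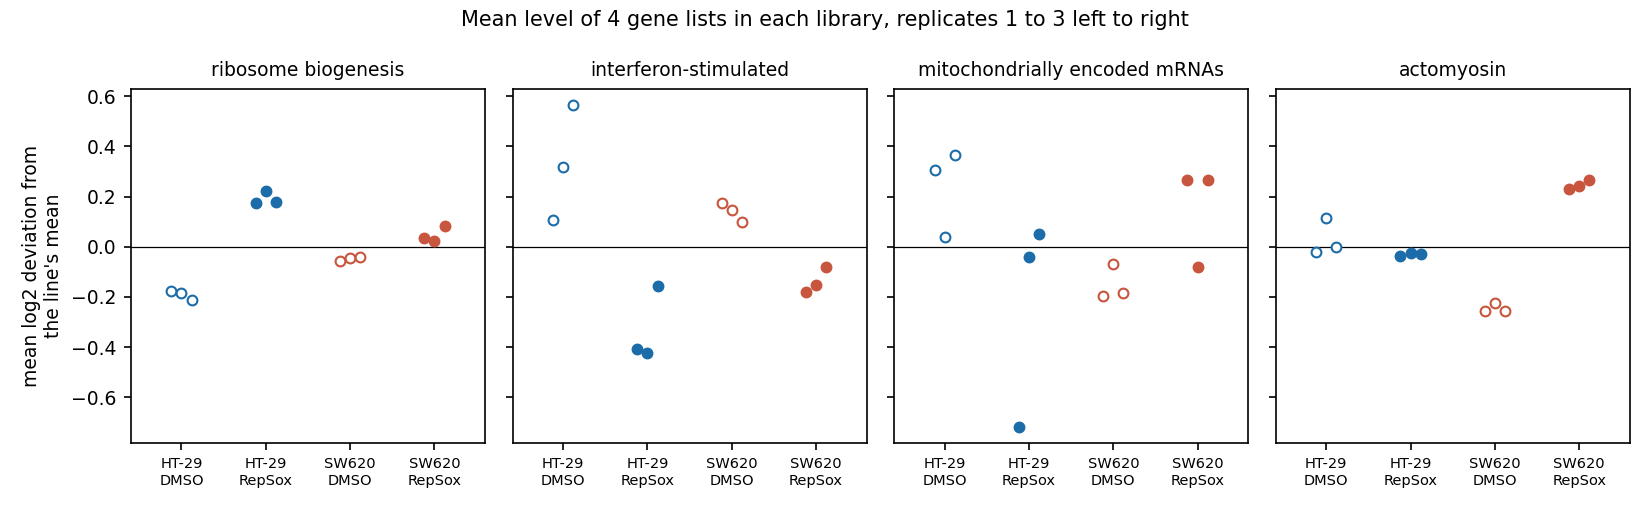
Mean log2 deviation of 4 gene lists from their mean in the same line, for each of the 12 libraries (open, DMSO; filled, RepSox; blue, uninduced HT-29 iZEB1; red, SW620; replicates 1 to 3 from left to right). Ribosome biogenesis, interferon-stimulated and actomyosin genes separate the groups of both lines, the last narrowly in HT-29. HT-29 RepSox replicate 1 lies at -0.72 for the mitochondrially encoded mRNAs, away from its 2 replicates.

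The ATF4, hypoxia and glycolysis, sterol and fatty acid lists also held more lower than higher responses in SW620. Of 30 tested ATF4-dependent amino acid genes, 9 had a lower and 1 a higher response in SW620 (median -0.19), and 15 rose in HT-29 against 8 in SW620. PHGDH, the first enzyme of serine synthesis, rose in HT-29 from 61.6, 69.3 and 57.5 CPM to 90.7, 105 and 93.8 CPM and had 47.6, 54 and 43.1 CPM and 38.1, 43.1 and 45 CPM in SW620, where the groups overlapped. The single member with a higher response was SLC7A11, the cystine transporter, which rose by 1.11 ± 0.076 in SW620 and by 0.23 ± 0.070 in HT-29. Of 34 hypoxia and glycolysis genes, 14 responses were lower and 4 higher in SW620 (median -0.20). Leaving out single libraries gave 10 to 16 lower and 1 to 3 higher, and the fit of all 18 libraries 9 lower and 1 higher. RepSox raised 9 and lowered 6 of them in HT-29 and raised 1 and lowered 10 in SW620. HK2, a hexokinase, changed by 0.54 ± 0.056 in HT-29 and 0.12 ± 0.055 in SW620. Among 27 sterol synthesis and uptake genes, 7 were lower and 1 higher, against 7.69% and 8.52% of all genes. ASS1, argininosuccinate synthase, had 8.03, 7.30 and 7.31 CPM with vehicle and 17.6, 16.1 and 17.8 CPM with RepSox in HT-29 and changed by -0.13 ± 0.064 in SW620 (difference -1.31 ± 0.10, adjusted p = 5.6e-10).

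Interferon-stimulated genes fell in HT-29, where 33 of 37 tested fell and none rose, and 11 of 37 fell in SW620. The difference was called higher in SW620 for 11 and lower for 1, with a median of 0.33. In the fit of all 18 libraries 3 were called higher, and leaving out single libraries gave 8 to 13. The list's mean deviation was 0.10, 0.32 and 0.56 in the HT-29 vehicle libraries and -0.41, -0.42 and -0.16 with RepSox, so the vehicle libraries differed from each other by as much as some did from RepSox. In SW620 it was 0.17, 0.14 and 0.10 against -0.18, -0.15 and -0.081. DDX58, the RNA sensor RIG-I, fell in HT-29 from 66.7, 73.7 and 91.4 CPM to 46.4, 41.3 and 53.1 CPM, and its SW620 groups overlapped (3.18-4.61 and 4.58-6.01 CPM). Its difference was 1.14 ± 0.19 (adjusted p = 1.0e-04).

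All 13 mitochondrially encoded mRNAs had a higher response in SW620 (median 0.75), with 11 falling in HT-29 and 4 rising in SW620. All genes with a symbol starting with MT-, not these 13 alone, held 2.51% of counts in HT-29 RepSox replicate 1. They held 3.94% and 4.16% in the other 2 replicates, against 4.31% to 5.3% in the HT-29 vehicle libraries. Without HT-29 RepSox replicate 1, 12 of the 13 mRNAs were called and their median was 0.54. DESeq2 called 8, and the fit of all 18 libraries called 4. MT-ND4, a complex I subunit, had 6187, 5296 and 6640 CPM with vehicle and 2771, 4894 and 5034 CPM with RepSox in HT-29, and 4840, 5968 and 5117 CPM and 7692, 6111 and 7190 CPM in SW620. The low library's part in this result was not tested beyond its removal.

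Other genes with large differences, apart from RASSF6, had most of their change in 1 line. ANTXR2, the receptor for anthrax toxin and a collagen VI-binding protein, fell in HT-29 from 17.9, 18.2 and 16.8 CPM to 5.07, 5.30 and 4.40 CPM and rose modestly in SW620 (0.30 ± 0.086). RAPGEF3, the cAMP-activated exchange factor EPAC1, did likewise (-1.64 ± 0.087 and 0.30 ± 0.092). RASSF6, a RAS-association domain protein, changed by at least 1.5-fold in both lines. It fell in HT-29 (-1.31 ± 0.10) and rose in SW620 from 102-115 CPM to 158-176 CPM. ANK3, the membrane adaptor ankyrin-G, fell in SW620 from 8.31, 7.41 and 8.92 CPM to 3.27, 3.22 and 3.26 CPM and had 19.7, 19.6 and 22.2 CPM and 19.4, 19.1 and 21.2 CPM in HT-29, where the groups overlapped. LMO4, a LIM-only transcriptional cofactor, rose in HT-29 (0.90 ± 0.054), where its mean was 243 CPM ± 21.6 (SD, n = 3) with vehicle, and fell in SW620 (-0.24 ± 0.073). PLTP, the phospholipid transfer protein, TRABD2A, a membrane metalloprotease that inhibits WNT proteins, and CHCHD10, a mitochondrial intermembrane protein, rose in HT-29 (1.16, 1.19 and 0.88). None of the 3 was called in SW620. Exons of PLTP, TRABD2A and CHCHD10 overlap antisense genes, and the counting's strand setting is not given in the sources used.

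Genes averaging 5 CPM or more in 1 line and under 1 CPM in the other gave differences with less depth behind them. HIC1, a tumour suppressor transcription factor, rose in SW620 from 6.81, 7.11 and 5.0 CPM to 19, 17.7 and 17.7 CPM and had 0.427, 0.369 and 0.341 CPM and 0.254, 0.458 and 0.459 CPM in HT-29. LNX1, an E3 ubiquitin ligase, fell in HT-29 from 12.3-13.4 CPM to 4.24-4.84 CPM and had 0.994-1.339 and 0.778-0.954 CPM in SW620. MUC20, a membrane mucin, fell in HT-29 from 18.1-18.9 CPM to 6.12-7.01 CPM, and its SW620 libraries held 0.227-0.744 and 0.421-0.570 CPM. MUC20 shares exons on the same strand with MUC20-OT1, so its counts are not certain to be its own. The HIC1 difference was 1.48 ± 0.37 (adjusted p = 0.0057), and that of MUC20 lost its call without SW620 RepSox replicate 1 (1.16, adjusted p = 0.056). The non-coding AC022075.1 rose in HT-29 from 3.95-5.90 CPM to 12.3-12.9 CPM and was at 0.306-0.682 and 0.158-0.438 CPM in SW620.

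Other genes moved the same way in both lines at different sizes. EREG, the EGFR ligand epiregulin, rose in SW620 from 20.3, 22.7 and 24.4 CPM to 52.8, 53.1 and 55.7 CPM and in HT-29 from 92.5, 97.9 and 110.4 CPM to 120.4, 114 and 118 CPM, a difference of 1.03 ± 0.092 (adjusted p = 6.8e-09). LGR6, an R-spondin receptor, and TMEM231, a ciliary transition zone protein, rose further in HT-29 (1.17 and 1.33) than in SW620 (0.27 and 0.31). TMEM231 shares exons on the same strand with AC009163.2 and AC025287.1, so its counts are not certain to be its own. LOXL4, a lysyl oxidase that cross-links collagen, fell in HT-29 from 41.1, 36.5 and 39.4 CPM to 12.5, 11 and 10.4 CPM and in SW620 from 17.3, 17.5 and 15.4 CPM to 13.1, 13.3 and 13.4 CPM. BAIAP3 (-1.76 in HT-29, -0.42 in SW620), a secretory-granule trafficking protein, and MYO15B (-1.57 and -0.19) also fell further in HT-29. The groups of all 6 genes stood apart within each line, which adds no support, as the genes were picked for calls in both lines.

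The remaining lists are given by their counts, which compare with 8.52% higher and 7.69% lower over all genes. WNT targets and stem cell genes had 7 higher and 8 lower responses in SW620 among 24 tested, with DKK1 at one end. Of 20 YAP and TAZ targets 6 were higher and 2 lower, and MYOF, the membrane repair protein myoferlin, fell in HT-29 from 113, 119 and 121 CPM to 58.5, 63.9 and 55.3 CPM and rose in SW620 from 320.1, 327 and 334 CPM to 436, 476 and 457 CPM. The NF-kB list had 6 higher and none lower of 19 (median 0.36), among them BCL3, a nuclear NF-kB cofactor, which rose by 0.76 ± 0.11 in SW620. The NRF2 list had 5 higher and 1 lower of 24, and fell in both lines more often than it rose, by 11 to 1 in SW620 and 16 to 2 in HT-29. Of 45 replication genes 2 were higher and 4 lower, and of 40 mitosis genes 4 and 3. Leaving out single libraries gave 3 to 7 lower replication genes and 1 to 7 lower mitosis genes, and library totals alone gave 10 and 8. Of 21 unfolded protein response genes none was called either way, and 5 rose in each line and none fell. The ligand and antagonist list had 1 higher and 1 lower of 16, intestinal differentiation 2 and 4 of 27, aryl hydrocarbon receptor targets 4 and 1 of 11, p53 targets 7 and 1 of 26, fatty acid synthesis 0 and 2 of 12, lysosome and autophagy 8 and 2 of 34, and histones 1 and 0 of 19. CYP1A1, the aryl hydrocarbon receptor target, had 0.513, 0.568 and 0.455 CPM and 0.113, 0.057 and 0 CPM in HT-29 and 1.38, 1.62 and 1.87 CPM and 0.622, 0.722 and 0.816 CPM in SW620. It fell in both lines, and its difference (adjusted p = 0.038) lost the call in the fit of all 18 libraries, with a replicate block within each line (adjusted p = 0.050) or shared by the lines within each treatment (adjusted p = 0.0644), and without any 1 of 8 of the 12 libraries.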

How the data were processed

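Poly(A)-selected RNA from HT-29 iZEB1 and SW620 cells was sequenced on a BGISEQ-500, per the labels' protocols. The deposited table holds raw gene counts for 60642 symbols. The submitters' processing notes name FastQC 0.11.9, HISAT2 2.2.0, featureCounts 2.0.0, DESeq2 1.34.0 and GRCh38.p13; no source used here gives the strand setting or annotation release. Genes were kept with filterByExpr (minimum count 10), and 99.93% to 99.96% of counts remained. TMM factors scaled the libraries. edgeR 4.0.16 (R 4.3.3) fitted 4 group means to 12 libraries by quasi-likelihood. The contrast was the SW620 response minus the HT-29 response, with Benjamini-Hochberg adjustment over 18614 genes. Log2 values carry the fit's standard error after ±, and intervals are 95%, not adjusted for the number of genes. Each library was counted separately. Replicates differed by more than sampling noise (chi-square per degree of freedom 3.93 to 14.9), which does not show that they came from separate cultures. Alternatives were RLE scaling, library totals, DESeq2 1.42.0, no filter, a filter of at least 1 CPM in each line, all 18 libraries, replicate blocks within and across lines and leaving out each library.

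The genes ZEB1, CDH1, VIM, SMAD7, ID1, CYP1A1, SMAD2, SMAD3, SMAD4, TGFBR1, TGFBR2 and ACVR1B were named whether called or not. The other named genes all had a called difference. They were the 8 largest differences in each direction among genes at 5 CPM or more in each line and the 6 largest opposite responses each way. To these were added 4 genes expressed in 1 line, the 6 largest same-direction ones and up to 4 called members of each list. The members and lists were chosen with earlier results of these data known. Genes named outside that rule, such as LAMB3, ITGB4, ITGA3, ITGA6, ITGB6, TJP3, CLDN3, VEGFA, MYH10, HK2 and DUSP4 to DUSP6, were chosen after their values were seen. Some named genes are not reported here.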

Additional observations from a re-analysis of the deposited data

Results flagged for a closer look

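The difference between the lines was itself tested, as the contrast of the 2 RepSox responses, and 3016 genes passed (edgeR's quasi-likelihood test, adjusted p under 0.05). Genes past that test that are listed here are among those with the largest differences among genes at 5 CPM or more in each line, the largest opposite responses, the largest same-direction responses, and 4 genes expressed in 1 line. No explanation of any of them was tested.

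The response was higher in SW620 for IGFL2-AS1 (2.26 log2), DKK1 (2.25), ANTXR2 (2.14), EMP1 (2.03), GCOM1 (1.98), RASSF6 (1.97), RAPGEF3 (1.95) and KRT19 (1.56). It was lower for CA9 (-1.3446), ASS1 (-1.31), ANK3 (-1.29), ID2 (-1.22), TRABD2A (-1.21), LMO4 (-1.15), PLTP (-1.03), CHCHD10 (-1.02), HPDL (-0.92), HNF4G (-0.89), GPC4 (-0.85) and LPIN1 (-0.78). Of the genes expressed in 1 line, HIC1 (1.48), LNX1 (1.12) and MUC20 (1.29) were higher and AC022075.1 (-2.24) was lower. Of the genes that moved the same way in both lines, EREG (1.03), LOXL4 (1.45), MYO15B (1.38) and BAIAP3 (1.3396) were higher, while TMEM231 (-1.02) and LGR6 (-0.91) were lower.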

How the results depend on the processing

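The counts of called genes were recomputed under 21 alternatives, 12 of which left out 1 library, and 157 of the 162 recomputed counts stayed within 1.5 times the reported one. The fit of all 18 libraries called 1029 differences higher and 953 lower in SW620 and 60 genes down in SW620 and up in HT-29. Library totals alone gave 160 of the latter, with 43.0% of called differences higher against 52.6%. Leaving out 1 library gave 1235 to 1545 higher and 1129 to 1707 lower differences, 1168 to 1715 rises and 897 to 1492 falls in SW620, 2311 to 3162 rises and 2309 to 2824 falls in HT-29, and 212 to 271 and 63 to 137 opposite calls up and down in SW620.

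Of 134 genes named by the rule, 128 were called, which the rule largely fixed, as most of its parts took only called genes. Of these 128, 20 lost the call without at least 1 library and 17 in the fit of all 18 libraries. None changed sign. TGFBR1 gained a call without either of 2 libraries. Among the 30 genes listed for a closer look, MUC20 alone lost its call under any alternative run, while OVOL1, EGR3, IGFBP3 and TNFRSF19, named through their lists, each lost theirs without at least 1 library. Within HT-29, same-numbered libraries correlated at 0.0491 to 0.185 and differently numbered ones at -0.175 to 0.0991. Within SW620 the values were -0.325 to -0.0564 and -0.212 to 0.249. Of the 12 libraries, 4 correlated best with their own number, all of them in HT-29. With 3 same-numbered pairs in each line, these values cannot decide whether replicate numbers pair the libraries. Between the lines, same-numbered DMSO libraries correlated at 0.194 to 0.509, although HT-29 replicate 2 correlated more with SW620 replicate 1 (0.30) than with SW620 replicate 2 (0.255), and same-numbered RepSox libraries at -0.143 to 0.00962. The labels do not say what a number marks. With the replicate block within each line 2794 differences were called, 2708 of them shared with the 3016, and CYP1A1 was the only named gene to lose its call (adjusted p = 0.050). Blocks across the lines were chosen after seeing the data. A replicate block across both lines gave 3060 calls, 2926 of them shared, and no named gene changed its call. A replicate block across both lines within each treatment gave 3399 (1750 higher and 1649 lower), 2915 of them shared. CYP1A1 (adjusted p = 0.0644) and IGFBP3 (adjusted p = 0.0538) then lost their calls, and TGFBR1 gained one (adjusted p = 0.0474). Depth limits the 195 called differences under 1 CPM in HT-29, the 133 under 1 CPM in SW620 and the 25 with a group at 0 counts, for which no fold was given.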
